A study of Mus musculus with 68 samples.

Results

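The 8 genes described here, Tmem207, Inpp4b, Mro, Pcp4l1, C1ql4, Mast4, Vstm2a and Nr0b1, do not encode cadherins and were picked because their values were high in motor neurons induced to express Pou3f1. They are 8 of the 19938 genes measured, each stood for by 1 transcript cluster (the probe sets that represent a transcript on these arrays), and they lie on 8 different chromosomes. Their values in the Pou3f1 and YFP arrays chose them, so every difference of these genes between a Pou3f1 line and YFP below is a description.

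Pou3f1 (also called Oct6 or SCIP) is a class III POU-domain transcription factor known from Schwann cells and from phrenic motor neurons, which innervate the diaphragm. Lhx3 is a LIM-homeodomain factor that acts with Isl1 to specify spinal motor neurons, and Hox factors such as Hoxa5 and Hoxc6 set the identity of motor neurons along the rostrocaudal axis. The 8 genes have unrelated roles: Nr0b1 (DAX-1) is an orphan nuclear receptor without the usual DNA-binding domain, C1ql4 is a secreted C1q-like protein that binds the adhesion receptor Adgrb3, Vstm2a is a secreted immunoglobulin-domain protein, Inpp4b removes the 4-phosphate of a phosphoinositide, Mast4 is a microtubule-associated serine/threonine kinase, and Pcp4l1 is a small relative of the calmodulin-binding protein Pcp4. Mro (maestro) is known from the male gonad of the mouse, and Tmem207 is a transmembrane protein of which little is known.

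The study screened factors for their ability to induce phrenic genes in motor neurons made from mouse embryonic stem cells, labelled as strain C57/BL6. From day 2, embryoid bodies were exposed to a Smoothened agonist with retinoic acid, and magnetic sorting on day 5 selected cells carrying a motor neuron surface reporter, CD2 or CD14. Sorted cells were then cultured for 30 h, with doxycycline to switch on the transgene. Per the protocol, certain Notch intracellular domain cultures had it on for just the last 10 h. RNA was hybridised to 68 arrays in 31 groups, 45 arrays of CD2 cells and 23 of CD14 cells, in 8 batches numbered in the titles.

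The lines with Pou3f1 were Pou3f1 in CD2 cells (4 arrays, batches 1, 2 and 4) and, with 2 arrays each in CD14 cells, Pou3f1, Flag-tagged Pou3f1, Pou3f1 with Hoxa5, Pou3f1 with Hoxc6 and Pou3f1 with DNLhx3 (a dominant-negative Lhx3), all in batch 6, and Pou3f1 with Lhx3 in batch 7. Of the 21 lines without Pou3f1, 18 were CD2 lines, which expressed Hoxa5, Hoxc6, Lhx3, DNLhx3, Zic1, Klf5, Klf6, Hey1, Tox, Vwc2, Chd5, Arid5b, Btbd3, Sfmbt2, Zbtb7c or the Notch1 intracellular domain (a line numbered 10 and a line numbered 30 in the titles), or were the H4 parental line. The other 3 were CD14 lines: the E3 parental line and NERT, numbered 10 and 30, a construct that the labels do not describe. The controls expressed YFP, with 4 arrays in CD2 cells (batches 1 to 3) and 4 in CD14 cells (batches 6 and 7). The labels do not say whether arrays of a group came from separate cultures, or whether a line is 1 clone, so the p-values cover the scatter among these arrays alone, and that scatter may be technical.

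Values are RMA values on the log2 scale, where a difference of 1 is 2-fold, and the median gene averaged 8.21. Motor neuron genes differed in level. Isl1 lay between 11.84 and 13.47 in the 16 arrays with Pou3f1, and between 12.46 and 12.97 in the 8 YFP arrays. Isl2 (11.05 to 13.29, against 11.34 to 12.63 with YFP) and Slc18a3 (12.23 to 13.04, against 12.80 to 13.24) were also high. Chat (8.61 to 10.18, against 9.96 to 10.41) and Mnx1 (8.49 to 10.34, against 8.51 to 9.37) were lower. The progenitor genes read 10.60 to 11.73 for Nes (YFP 11.48 to 12.38), 8.67 to 9.28 for Sox1 (8.79 to 9.41) and 8.94 to 9.88 for Hes5 (8.71 to 9.39). The pluripotency factor Pou5f1 lay at 6.01 to 6.66 in arrays with Pou3f1 and at 5.83 to 6.24 in YFP arrays. Other pluripotency genes read 6.29 to 6.98 for Nanog (YFP 6.48 to 6.87), 5.80 to 6.32 for Zfp42 (5.97 to 6.61) and 6.68 to 7.32 for Esrrb (6.68 to 7.30). Among the lines with Pou3f1, the mean of 12 motor neuron genes was lowest with Pou3f1+DNLhx3 (10.57 and 10.65) and highest with Pou3f1+Lhx3 (11.70 and 11.73), against 11.18 and 11.20 with Pou3f1 alone and 11.19 to 11.34 with YFP in CD14 cells. In bulk RNA, a change in the number of cells of a type and a change in RNA per cell cannot be told apart. In batch 4, 6 arrays read Hox genes high (Hoxc5 at 12.14 to 12.50, against 8.02 to 10.24 in the other 3 arrays of that batch and 8.41 to 10.36 in YFP arrays), and 2 of the 6 are Pou3f1 arrays in CD2 cells. The values of the Pou3f1 line of CD2 cells are also given without these arrays.

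The induced gene itself differed less between arrays than some of the 8 genes did. Pou3f1 read 9.48, 9.51, 10.14 and 10.70 in the Pou3f1 line of CD2 cells, against 8.67, 8.41, 8.69 and 8.39 with YFP. In CD14 cells it read 8.76 and 9.07 with Pou3f1 alone, 9.03 and 8.86 with the Flag tag, 9.19 and 9.14 beside Hoxa5, 10.29 and 10.33 beside Hoxc6, 9.66 and 9.24 beside DNLhx3, and 9.72 and 9.59 beside Lhx3, against 8.45, 8.48, 8.40 and 8.31 with YFP. All Pou3f1 arrays were above all YFP arrays of their reporter. The fitted difference was 1.09 ± 0.15 in CD2 cells (± is the standard error of the fit throughout). In CD14 cells with Pou3f1 alone it was 0.45 ± 0.19, which did not pass (limma, Benjamini-Hochberg adjusted p = 0.583). Where the probes of this cluster lie relative to the induced construct was not examined. Among the 50 arrays without Pou3f1 in batches 1 to 7, 8 reached the lowest Pou3f1 array; the highest was a Notch1 intracellular domain array (the line numbered 30) at 9.79.

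Tmem207 separated the lines most widely. It read 8.78, 8.79, 8.13 and 8.49 with Pou3f1 in CD2 cells, against 6.65, 6.49, 6.67 and 6.36 with YFP. In CD14 cells it read 9.57 and 9.58 with Pou3f1 alone, 9.72 and 9.85 with the Flag tag, 10.04 and 10.01 beside Hoxa5, 10.33 and 10.25 beside Hoxc6, 6.48 and 6.76 beside DNLhx3, and 11.03 and 10.96 beside Lhx3, against 6.91, 6.78, 6.61 and 6.51 with YFP. Beside DNLhx3 both arrays lay within or below the YFP arrays, and all other Pou3f1 arrays lay above them. The fitted difference from YFP was 2.05 ± 0.21 in CD2 cells (4.14-fold, n = 4 each) and 2.73 ± 0.26 in CD14 cells (6.64-fold, 2 against 4 arrays). It ranked as the third largest rise among all genes in the CD2 comparison, the second with Pou3f1 alone in CD14 cells and the first with the Flag tag.

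The window at the start of Tmem207 differs in base composition from those found for the other genes, and the windows of the 3 genes that moved most with Lhx3 or DNLhx3 are printed here. RefSeq windows of GRCm38.p6, 250 bases before to 50 after an annotated start, were found for 7 of the 8 genes (all but Mro). The windows of C1ql4, Mast4 and Inpp4b lie inside the annotated span of the gene, so they do not cover its outermost start. C1ql4 spans chr15:99084086-99090674, and its window lies well within it. The Tmem207 window had a GC content of 43.0% with 1 CpG, against 53.3% to 75.0% with 8 to 37 CpG in the other 6, and a median of 52.7% over 32841 windows. The motifs searched on both strands were the octamer ATGCAAAT (in 1.74% of all windows), its variant ATGCTAAT (0.920%), CATNNTAAT (2.47%) and the homeodomain core TAATTA (5.29%), a palindrome; none of the others overlapped it here. Only TAATTA was found, once, in the Tmem207 window, where capitals mark it. The Vstm2a and C1ql4 windows held none of these letters. A match is not a bound site, and binding was not measured. The windows are chr16:26526722-26527021 on the minus strand for Tmem207, chr11:16257492-16257791 on the plus strand for Vstm2a and chr15:99087679-99087978 on the minus strand for C1ql4, each written 5′ to 3′ along its gene.
Tmem207: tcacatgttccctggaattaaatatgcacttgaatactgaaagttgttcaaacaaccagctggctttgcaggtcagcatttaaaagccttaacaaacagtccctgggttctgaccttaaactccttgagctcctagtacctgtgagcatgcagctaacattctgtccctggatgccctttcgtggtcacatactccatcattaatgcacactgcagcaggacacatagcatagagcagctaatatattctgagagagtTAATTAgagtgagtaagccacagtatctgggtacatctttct
Vstm2a: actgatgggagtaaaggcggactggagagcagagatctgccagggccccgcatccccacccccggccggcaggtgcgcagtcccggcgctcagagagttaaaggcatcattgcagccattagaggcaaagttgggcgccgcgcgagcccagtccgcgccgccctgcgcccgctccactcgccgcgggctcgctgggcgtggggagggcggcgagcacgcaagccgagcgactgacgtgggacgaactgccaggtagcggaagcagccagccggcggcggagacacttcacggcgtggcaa
C1ql4: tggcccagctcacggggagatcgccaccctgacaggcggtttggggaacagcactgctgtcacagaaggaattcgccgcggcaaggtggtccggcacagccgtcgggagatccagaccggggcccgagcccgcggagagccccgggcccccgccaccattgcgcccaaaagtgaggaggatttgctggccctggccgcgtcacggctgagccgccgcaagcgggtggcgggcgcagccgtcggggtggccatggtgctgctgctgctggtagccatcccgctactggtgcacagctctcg

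Vstm2a, the secreted immunoglobulin-domain protein, read 9.87, 9.80, 9.51 and 9.94 with Pou3f1 in CD2 cells, against 8.87, 8.06, 8.03 and 7.99 with YFP. Among CD14 lines the values were 10.20 and 9.66 with Pou3f1 alone, 9.71 and 10.14 with the Flag tag, 11.18 and 11.35 beside Hoxa5, 10.65 and 10.57 beside Hoxc6, 12.44 and 12.62 beside DNLhx3, and 9.59 and 9.16 beside Lhx3, against 7.97, 8.39, 8.62 and 8.66 with YFP. Each Pou3f1 array lay above every YFP array of its reporter, with those beside DNLhx3 highest and those beside Lhx3 nearest to YFP. The fitted difference was 1.39 ± 0.31 in CD2 cells and 1.75 ± 0.39 in CD14 cells with Pou3f1 alone.

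C1ql4, the secreted C1q-like protein, read 9.26, 9.48, 9.83 and 10.11 with Pou3f1 in CD2 cells, against 7.55, 7.57, 8.72 and 8.08 with YFP. In CD14 cells it read 9.65 and 9.61 with Pou3f1 alone, 9.27 and 9.43 with the Flag tag, 9.92 and 10.23 beside Hoxa5, 9.29 and 9.30 beside Hoxc6, 11.31 and 10.85 beside DNLhx3, and 11.66 and 11.47 beside Lhx3, against 8.29, 8.09, 8.31 and 8.08 with YFP. The groups did not overlap, and the lines with DNLhx3 and with Lhx3 were both above all other lines. The difference was 1.74 ± 0.22 in CD2 cells and 1.44 ± 0.27 in CD14 cells.

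Nr0b1, the orphan receptor, read 6.87, 7.12, 6.82 and 7.46 with Pou3f1 in CD2 cells, against 6.77, 6.23, 7.34 and 7.00 with YFP, so that these groups overlapped. The fitted difference was 0.22 ± 0.22 with all arrays and 0.45 without the 6 Hox-high arrays, and within batches 1 and 2, with 1 array of each line, it was 0.10 and 0.88. The CD14 lines gave 8.80 and 8.60 with Pou3f1 alone, 7.95 and 8.05 with the Flag tag, 8.07 and 8.12 beside Hoxa5, 9.13 and 9.54 beside Hoxc6, 9.54 and 9.67 beside DNLhx3, and 7.48 and 7.39 beside Lhx3, against 6.64, 6.48, 6.19 and 6.18 with YFP. All of these lay above YFP, and the difference with Pou3f1 alone was 2.14 ± 0.27 (4.41-fold). It ranked as the third largest rise there and 1680th in CD2 cells. The difference between the reporters was not tested, because both contrasts chose the gene, and reporter and batch change together.

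Inpp4b, the phosphoinositide phosphatase, read 9.00, 9.24, 8.81 and 8.98 with Pou3f1 in CD2 cells, against 6.28, 6.57, 6.50 and 6.47 with YFP. In CD14 cells it read 8.51 and 8.50 with Pou3f1 alone, 8.11 and 8.86 with the Flag tag, 9.07 and 9.11 beside Hoxa5, 9.45 and 9.12 beside Hoxc6, 8.65 and 8.52 beside DNLhx3, and 8.97 and 9.15 beside Lhx3, against 6.45, 6.50, 6.48 and 6.57 with YFP. YFP arrays were tightly grouped and far below. The difference was 2.07 ± 0.22 in CD2 cells and 2.04 ± 0.27 in CD14 cells. Without the 6 Hox-high arrays the CD2 value was 2.62, and within batches 1 and 2, with 1 array of each line, it was 2.71 and 2.67. The 4 Hox-high arrays without Pou3f1 read Inpp4b at 7.84 to 8.79, against 6.46 to 6.75 in the other 3 arrays of batch 4.

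Mro separated arrays with and without Pou3f1 completely. It read 9.38, 9.42, 9.16 and 9.55 with Pou3f1 in CD2 cells, against 7.51, 7.38, 7.30 and 7.43 with YFP. CD14 cells gave 9.47 and 9.58 with Pou3f1 alone, 9.41 and 9.66 with the Flag tag, 8.74 and 9.18 beside Hoxa5, 9.92 and 10.12 beside Hoxc6, 8.67 and 8.37 beside DNLhx3, and 8.78 and 8.89 beside Lhx3, against 7.82, 7.69, 7.28 and 7.16 with YFP. The 16 arrays with Pou3f1 lay between 8.37 and 10.12 with a median of 9.39, and the 50 without lay between 6.66 and 7.88 with a median of 7.34. How many of all genes separate these arrays as fully was not counted, and values with Pou3f1 chose the gene. The difference from YFP was 1.87 ± 0.16 in CD2 cells and 1.76 ± 0.21 in CD14 cells.

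Pcp4l1, the small relative of Pcp4, read 8.64, 8.41, 8.16 and 8.32 with Pou3f1 in CD2 cells, against 7.18, 7.62, 7.44 and 7.96 with YFP. The CD14 arrays read 8.97 and 8.98 with Pou3f1 alone, 8.87 and 8.91 with the Flag tag, 8.72 and 9.36 beside Hoxa5, 9.87 and 9.91 beside Hoxc6, 9.20 and 9.13 beside DNLhx3, and 10.40 and 10.00 beside Lhx3, against 7.42, 7.38, 7.98 and 8.39 with YFP. The groups did not overlap, with the lowest Pou3f1 array of CD2 cells (8.16) close to the highest YFP array (7.96). The difference was 0.95 ± 0.15 in CD2 cells and 1.57 ± 0.19 in CD14 cells. The YFP arrays of batch 7 were above those of batch 6.

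Mast4, the kinase, read 10.85, 10.96, 10.26 and 10.40 with Pou3f1 in CD2 cells, against 9.12, 9.17, 9.34 and 9.00 with YFP. Its CD14 values were 9.83 and 9.97 with Pou3f1 alone, 9.50 and 9.54 with the Flag tag, 9.76 and 9.68 beside Hoxa5, 9.78 and 9.92 beside Hoxc6, 9.50 and 9.56 beside DNLhx3, and 9.12 and 9.02 beside Lhx3, against 8.46, 8.39, 8.47 and 8.66 with YFP. CD14 arrays were lower than CD2 arrays with Pou3f1 as with YFP, so the groups separate within each reporter only. The difference was 1.50 ± 0.14 in CD2 cells (1.79 without the 6 Hox-high arrays) and 1.47 ± 0.17 in CD14 cells.

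All arrays of the Pou3f1 line lay above all YFP arrays of the same reporter for 7 of the 8 genes in CD2 cells, where 4.78% of all 19938 genes did so. In CD14 cells the count was 8 with Pou3f1 alone (16.5% of all genes), 8 with the Flag tag (21.0%), 8 beside Hoxa5 (23.2%), 8 beside Hoxc6 (29.4%), 7 beside DNLhx3 (15.3%) and 8 beside Lhx3 (14.5%). The exceptions were Nr0b1 in CD2 cells and Tmem207 beside DNLhx3. Since values with Pou3f1 chose the genes, these counts describe the choice. Without the 6 Hox-high arrays the fitted CD2 differences from YFP not given so far were 1.93 for Mro, 1.70 for C1ql4, 1.47 for Vstm2a and 1.09 for Pcp4l1, and that of Tmem207 was 0.05 larger.

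**Figure D1:**
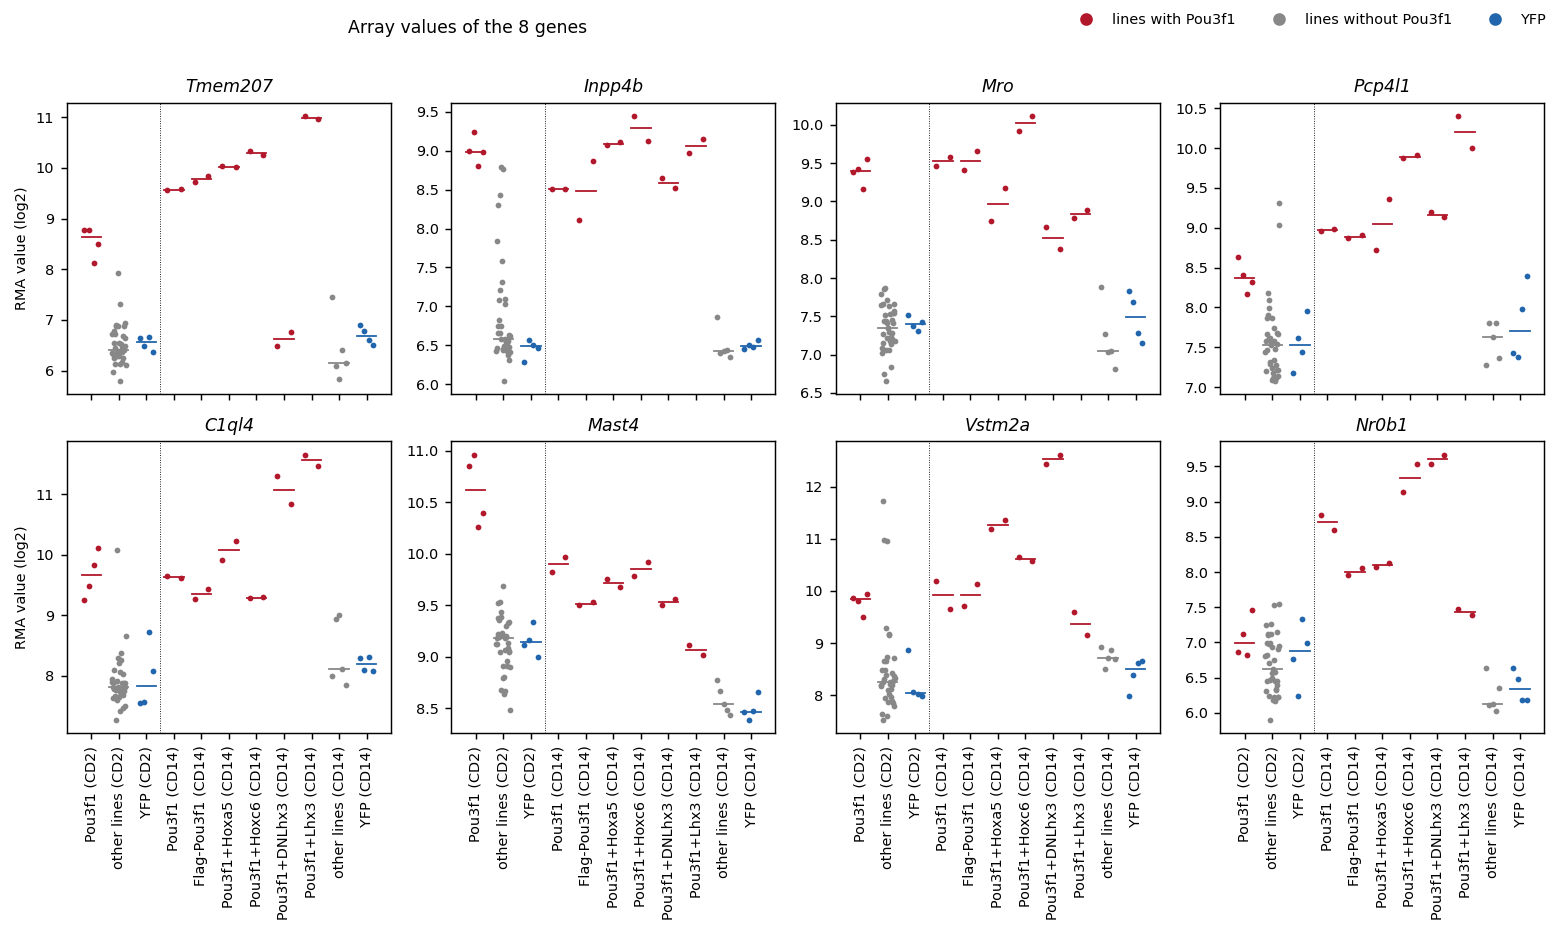
RMA values (log2, y axis) of each gene by array, grouped along the x axis by line, with CD2 cells left of the dotted line and CD14 cells right of it; points are arrays and short bars are group medians. Mro shows no overlap between arrays with Pou3f1 (red) and without, Tmem207 beside DNLhx3 sits with YFP (6.48 and 6.76), and Nr0b1 is separated in CD14 cells only.

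Where Pou3f1 was expressed with Lhx3, in batch 7, the 8 genes lay between 0.50 and 4.44 above YFP on the log2 scale. Whether these arrays helped to choose the genes is not known, and the YFP arrays did, so the values are given without a test. Tmem207 was 21.6-fold above YFP (4.44 ± 0.26), C1ql4 10.3-fold (3.37 ± 0.27) and Inpp4b 5.79-fold (2.53 ± 0.27). Pcp4l1 was 4.05-fold above YFP (2.02 ± 0.19), Mro 3.06-fold (1.61 ± 0.21) and Nr0b1 2.39-fold (1.25 ± 0.27). Vstm2a, at 0.73 ± 0.39, and Mast4, at 0.50 ± 0.17, were nearest to YFP. The median difference was 1.82 over the 8 genes and -0.01 over all genes.

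A second factor beside Pou3f1 was then set against Pou3f1 alone in CD14 cells, in 5 comparisons with the 2 Pou3f1 arrays that also helped to choose the genes. Whether arrays of the lines with a second factor helped as well is not known, so the p-values are not independent of the choice. With DNLhx3, 2 of the 8 genes rose and 2 fell, where 0.948% of all genes rose and 1.16% fell (limma over 19938 genes, Benjamini-Hochberg adjusted p under 0.05). Tmem207 fell by 2.95 ± 0.26 (7.74-fold lower, limma adjusted p = 3.56e-10), and Vstm2a rose by 2.60 ± 0.39 (6.06-fold, adjusted p = 1.79e-05). C1ql4 rose by 1.45 ± 0.27 (adjusted p = 0.000782; 0.0705 without replicate 1 of Pou3f1+DNLhx3). Mro fell by 1.00 ± 0.21 (adjusted p = 0.00225; 0.0597 without replicate 2 of Pou3f1 and 0.0929 without replicate 2 of Pou3f1+DNLhx3). In the same comparison 7 of 12 motor neuron genes fell and 0 rose; their part in these differences was not tested.

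With Lhx3, 2 genes rose against Pou3f1 alone and 0 fell, where 0.351% of all genes rose and 0.150% fell. C1ql4 rose 3.81-fold (1.93 ± 0.39, limma adjusted p = 0.00707) and Tmem207 3.26-fold (1.71 ± 0.37, adjusted p = 0.0176). The call for Tmem207 was lost when any 1 of the 4 arrays was left out (adjusted p = 0.0589 to 0.0952), and that for C1ql4 without replicate 3 of Pou3f1+Lhx3 (0.0604). Mast4 differed by -0.97 ± 0.24, just short of the threshold (adjusted p = 0.0519; 0.000137 with CD14 arrays alone). The 2 lines lie in different batches, tied to each other through YFP.

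With Hoxc6, Pcp4l1 rose by 0.92 ± 0.19 (1.89-fold, limma adjusted p = 0.00153), the 1 call among the 8 genes, where 4.67% of all genes rose and 4.30% fell. Pou3f1 itself read higher beside Hoxc6 by 1.39 ± 0.19 (adjusted p = 2.49e-06), and the part of that difference in the others was not tested. With Hoxa5, Vstm2a rose by 1.34 ± 0.39 (adjusted p = 0.0434), where 1.27% of all genes rose and 2.18% fell, and this call was lost whichever of the 4 arrays was left out (adjusted p = 0.0857 to 0.379). The Flag tag called 0 of the 8 genes, where 0.813% of all genes rose and 1.39% fell (440 in all; 3261 had an unadjusted p under 0.05). Nr0b1 had the largest difference with the tag, -0.70 ± 0.27 (adjusted p = 0.180), and Tmem207, Inpp4b, Mro, Pcp4l1, C1ql4, Mast4 and Vstm2a lay between -0.38 and 0.21. The nuclear RNA Malat1 was higher than with Pou3f1 alone in the Flag, Hoxa5 and Hoxc6 lines, by 1.72, 1.45 and 1.53 (adjusted p = 0.00768, 0.0182 and 0.00558), and its part in these values was not tested.

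The number of calls in these comparisons differed with the arrays in the fit. With batch 6 alone in the fit the differences were the same size, and more of the 8 genes and more of all genes passed. With Hoxc6, 6 of the 8 genes then rose, where 23.7% of all genes passed either way: Pcp4l1, Inpp4b (0.78, limma adjusted p = 0.0210), Tmem207 (0.72, 0.00113), Vstm2a (0.68, 0.0356), Nr0b1 (0.63, 0.00854) and Mro (0.50, 0.0455). With the Flag tag, Nr0b1 (-0.70, 0.0129) and Mast4 (-0.38, 0.0196) fell, where 11.8% of all genes passed. With Hoxa5, Vstm2a and Tmem207 (0.45, 0.0167) rose and Nr0b1 (-0.61, 0.0163) and Mro (-0.56, 0.0425) fell, where 13.5% passed. With DNLhx3, Nr0b1 (0.90, 0.00276) also rose and Mast4 (-0.37, 0.0279) also fell, which made 6 of 8, where 4.88% of all genes passed.

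**Figure D2:**
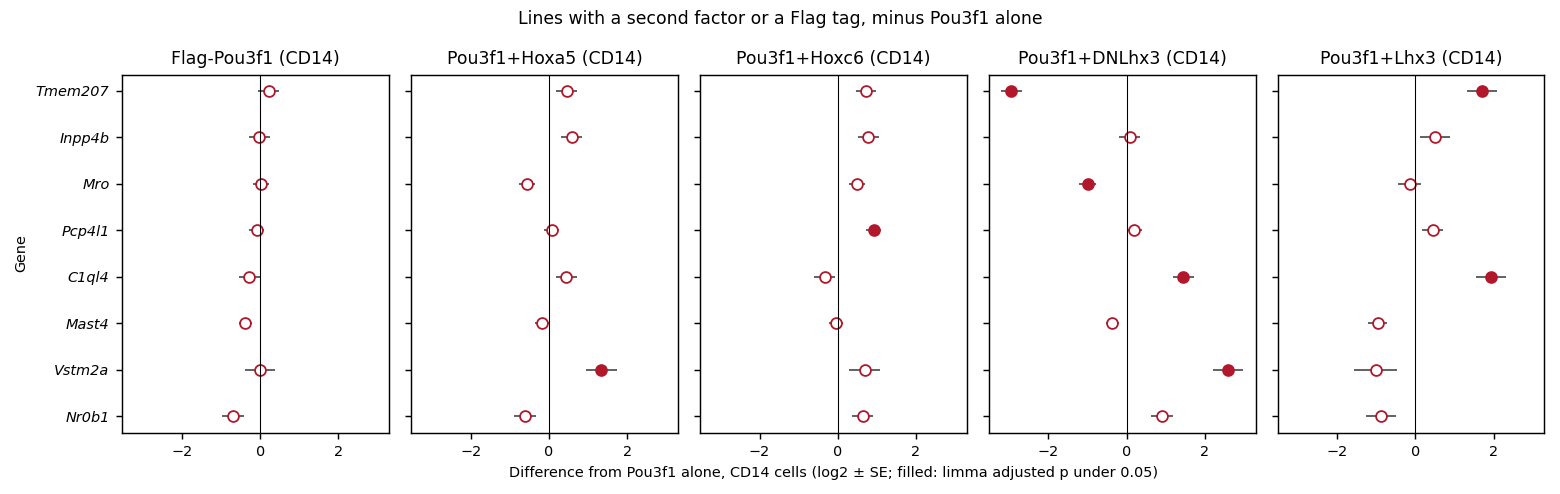
Difference from Pou3f1 alone in CD14 cells (x axis, log2 with standard error) of each gene (y axis) for the Flag-tagged line and the 4 lines with a second factor; filled points passed (limma adjusted p under 0.05). Tmem207 lies at -2.95 with DNLhx3 and 1.71 with Lhx3, and Vstm2a at 2.60 and -1.01.

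Lhx3 and its dominant-negative form were also set against each other beside Pou3f1, and 3 of the 8 genes differed. The 2 lines lie in different batches and are tied to each other through YFP. Whether arrays of these lines helped to choose the genes is not known, so the p-values may not be independent of the choice. Tmem207 was 25.2-fold higher with Lhx3 than with DNLhx3 (4.66 ± 0.37, limma adjusted p = 5.72e-11), where 0.808% of all genes were higher and 0.426% lower. Vstm2a fell by 3.61 ± 0.55 (12.2-fold lower, adjusted p = 4.92e-05) and Nr0b1 fell by 1.79 ± 0.39 (3.45-fold lower, adjusted p = 0.00684). The Nr0b1 call was lost with the replicate number as a block (limma adjusted p = 0.588). C1ql4 was high in both lines, with a difference of 0.48 ± 0.39 (adjusted p = 0.957), and Inpp4b and Pcp4l1 differed by 0.42 ± 0.39 and 0.25 ± 0.27 (adjusted p = 0.971 and 0.975). The mean of 11 cell cycle genes was 10.72 and 10.88 with Lhx3, against 10.09 and 10.23 with DNLhx3, and that of 12 motor neuron genes was 11.70 and 11.73 with Lhx3, against 10.57 and 10.65 with DNLhx3; their part was not tested.

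DNLhx3 was set against the Hox factors within batch 6, beside Pou3f1 in each line. The part of these lines in the choice of the genes is not known either, and the p-values carry the same limit. Against Hoxc6, where 5.23% of all genes rose and 5.64% fell, DNLhx3 gave lower Tmem207 (-3.67 ± 0.26, limma adjusted p = 1.21e-12), Mro (-1.50 ± 0.21, 1.82e-06) and Pcp4l1 (-0.73 ± 0.19, 0.00985), and higher Vstm2a (1.92 ± 0.39, 0.000651) and C1ql4 (1.79 ± 0.27, 1.23e-05). The Pcp4l1 call was lost whichever array was left out (adjusted p = 0.0621 to 0.0841). Against Hoxa5, where 4.29% of all genes rose and 4.67% fell, Tmem207 fell by 3.41 ± 0.26 (adjusted p = 7.78e-12) and Nr0b1 rose by 1.51 ± 0.27 (0.000205). Vstm2a rose by 1.26 ± 0.39 (0.0321, lost whichever array was left out) and C1ql4 by 1.01 ± 0.27 (0.0139, and 0.233 without replicate 1 of Pou3f1+DNLhx3 or 0.182 without replicate 2 of Pou3f1+Hoxa5). The proliferation gene Mki67 was higher with DNLhx3 than with Hoxa5 by 1.40 and than with Hoxc6 by 1.28 (adjusted p = 0.0188 and 0.0304), and its part was not tested.

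Between the 2 Hox lines, where 0.512% of all genes were higher with Hoxc6 and 0.461% lower, 3 of the 8 genes rose with Hoxc6. These p-values too may not be independent of the choice of the genes. Nr0b1 rose by 1.24 ± 0.27 (limma adjusted p = 0.0104), Mro by 1.06 ± 0.21 (0.00227) and Pcp4l1 by 0.85 ± 0.19 (0.0139). Each call was lost without replicate 2 of Pou3f1+Hoxa5 (adjusted p = 0.167, 0.217 and 1.00), with a Pcp4l1 difference of 0.53 there, and without replicate 2 of Pou3f1+Hoxc6 (0.386, 0.107 and 0.191). Nr0b1 and Pcp4l1 also missed the threshold without replicate 3 of Pou3f1+Hoxa5 (0.0947) and replicate 1 of Pou3f1+Hoxc6 (0.142), in that order of genes. Pou3f1 itself was higher with Hoxc6 by 1.14 ± 0.19 (adjusted p = 0.000183). With batch 6 alone in the fit, C1ql4 was also called between the Hox lines (-0.78, adjusted p = 0.0245), which made 4 of 8, where 2.61% of all genes passed. In that fit DNLhx3 called 4 genes against Hoxa5 (21.1% of all genes) and 7 against Hoxc6 (24.0%), with lower Inpp4b (-0.70, 0.0300) and Mast4 (-0.32, 0.0169) against Hoxc6 besides those above.

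The 21 lines without Pou3f1 asked whether other factors moved the same genes. Of 168 pairs of gene and line, 5 passed against YFP of the same reporter, where 1.24% of all pairs of gene and line passed. Mro (-0.44 to 0.32), Mast4 (-0.43 to 0.64), Nr0b1 (-0.67 to 0.20) and Tmem207 (-0.59 to 0.87) passed in 0 of the 21 lines. The YFP arrays also helped to choose the genes, and the CD2 arrays of batches 4 to 6 (among them all of Lhx3, Zic1, Hoxc6 and Hoxa5) are tied to YFP only through other lines.

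Vstm2a rose with DNLhx3 in CD2 cells, with 11.72 and 10.98, against 8.87, 8.06, 8.03 and 7.99 with YFP, and the groups did not overlap. The difference was 3.27 ± 0.36 (9.62-fold, limma adjusted p = 4.47e-08), where 2.00% of all genes rose, and it held under all 10 alternative settings and all 6 left-out arrays. Inpp4b rose with Hoxc6, with 7.58 and 8.77, against 6.28 to 6.57 with YFP. Its difference was 2.41 ± 0.37 (5.30-fold, adjusted p = 0.000101), where 1.20% of all genes rose, and it was 1.54 to 2.41 over 8 alternative settings and 1.81 to 3.00 over left-out arrays. The second Hoxc6 array was also the higher one for Vstm2a (10.96, against 8.74 in the first) and Tmem207 (7.93, against 6.87).

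Pcp4l1 rose with Zic1, with 9.31 and 9.03, against 7.18, 7.62, 7.44 and 7.96 with YFP. The difference was 1.74 ± 0.28 (3.33-fold, limma adjusted p = 0.000705), where 0.196% of all genes rose, and it was lost without the Zic1 array of batch 5 (0.118). With Lhx3, where 1.67% of all genes rose and 2.14% fell, Inpp4b rose by 1.37 ± 0.39 (adjusted p = 0.0425) and C1ql4 fell by 1.67 ± 0.39 (0.0146). Without the Lhx3 array of batch 5 neither passed (0.592 and 0.438), and Inpp4b also missed the threshold without either of 2 YFP arrays (0.0748 without that of batch 1 and 0.0743 without that of batch 2). The C1ql4 values with Lhx3, 7.41 and 8.06, lay below or among the YFP arrays (7.55, 7.57, 8.72 and 8.08), and the fitted fall rests on the batch terms. Neither this fall nor the Inpp4b rise passed with no batch terms, with CD2 arrays alone, without the 6 Hox-high arrays or with the H4 line as control. The Inpp4b rise also missed the threshold with the replicate number as a block, and it was 0.50 to 1.41 over 8 alternative settings.

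Over single arrays, the 8 genes differed in how often arrays without Pou3f1 reached those with it. The lowest array with Pou3f1 was reached by 0 of 50 arrays for Mro, by 1 for C1ql4 (Hoxa5 in batch 5, at 10.07), by 4 each for Inpp4b and Pcp4l1, by 5 for Vstm2a, by 16 for Nr0b1, by 24 for Tmem207 and by 30 for Mast4. For Tmem207 the lowest was the DNLhx3 line and for Nr0b1 the CD2 line. The other Hoxa5 array, which is among the 6 Hox-high arrays, read C1ql4 at 7.91. The fitted difference of C1ql4 with Hoxa5 from YFP was 0.42 with all arrays. Without the 6 Hox-high arrays it was 2.24, on 1 Hoxa5 array. In the fitted group levels, which remove batch, the 7 Pou3f1 groups held the 7 highest of 30 places for Mro and Nr0b1. Pou3f1 groups held the 6 highest for Tmem207, Inpp4b and Mast4. For Nr0b1 the lowest Pou3f1 group, that of CD2 cells at 6.84, lay next to Zic1 at 6.82. DNLhx3 in CD2 cells was the second highest for Vstm2a and Zic1 the fourth for Pcp4l1. For C1ql4 the Pou3f1 groups were spread. Those beside Lhx3, in CD2 cells, beside DNLhx3 and beside Hoxa5 held places 1, 2, 3 and 6. Pou3f1 alone in CD14 cells (9.63), the Flag line (9.35) and the Hoxc6 line (9.30) held places 10, 17 and 20. These 3 lay below YFP in CD2 cells (9.77, place 8) and above YFP in CD14 cells (8.19, place 27). Part of these arrays and groups chose the genes, and the share of all genes with such places, or with as few arrays reaching those with Pou3f1, was not counted.

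**Figure D3:**
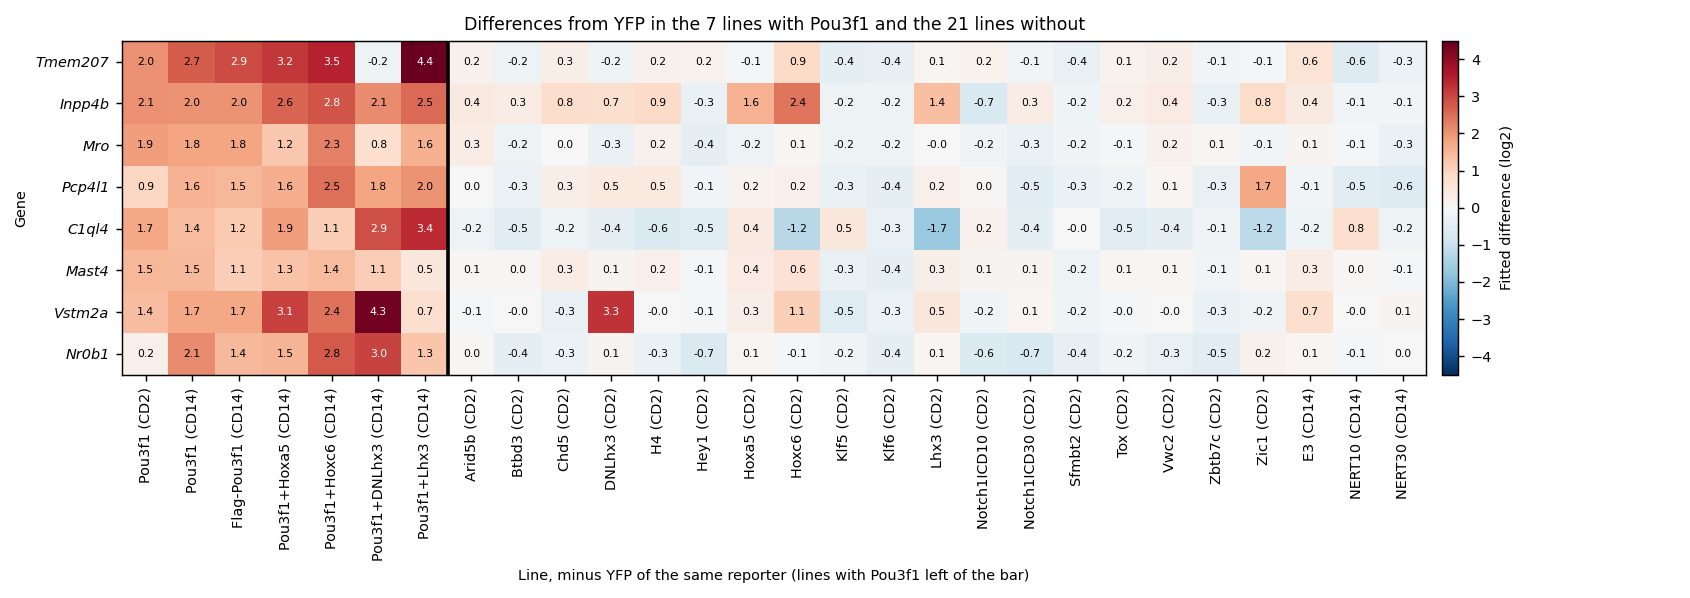
Fitted difference from YFP of the same reporter (colour and printed number, log2) for each gene (rows) in the 7 lines with Pou3f1, left of the bar, and the 21 lines without. Among the lines with Pou3f1, Tmem207 is near YFP beside DNLhx3 alone (-0.22), and the strongest cell without Pou3f1 is Vstm2a with DNLhx3 (3.27).

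Hoxa5, Hoxc6, DNLhx3 and Lhx3 were each expressed both alone, in CD2 cells, and beside Pou3f1, in CD14 cells, so the effect of each factor could be compared between these settings. This test was added after the values had been seen, and it compares reporters as well as the presence of Pou3f1, which cannot be told apart. The Pou3f1-alone and YFP arrays in it helped to choose the genes, so its p-values are not independent of that choice. For Tmem207, DNLhx3 gave -2.95 beside Pou3f1 and -0.20 alone, a difference of -2.76 ± 0.36 (limma adjusted p = 4.39e-05), where 0.125% of all genes passed. For Vstm2a, DNLhx3 gave 2.60 beside Pou3f1 and 3.27 alone, and the difference of -0.67 ± 0.53 did not pass (adjusted p = 0.994). C1ql4 with DNLhx3 gave 1.45 beside Pou3f1 and -0.43 alone (difference 1.88 ± 0.37, adjusted p = 0.0166), a call lost with the H4 line as control (0.592).

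C1ql4 with Lhx3 gave 1.93 beside Pou3f1 and -1.67 alone, a difference of 3.59 ± 0.55 (limma adjusted p = 0.000514), where 0.110% of all genes passed. It was 2.40 without the 6 Hox-high arrays. The value of -1.67 rests on the batch terms, as given above, and so does this difference in part. Inpp4b with Hoxc6 gave 0.78 beside Pou3f1 and 2.41 alone, a difference of -1.63 ± 0.46 (adjusted p = 0.0425), where 3.21% of all genes passed, and the call was lost without the 6 Hox-high arrays (0.0776) and with the H4 line as control. Hoxa5 gave 0 calls among the 8 genes, where 0.361% of all genes passed. In YFP arrays, CD14 minus CD2, 0 of the 8 genes passed by limma (0.00% of all genes higher and 0.00% lower; 2035 genes had an unadjusted p under 0.05), with Inpp4b at 0.85 ± 0.46 and C1ql4 at -1.58 ± 0.46.

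**Figure D4:**
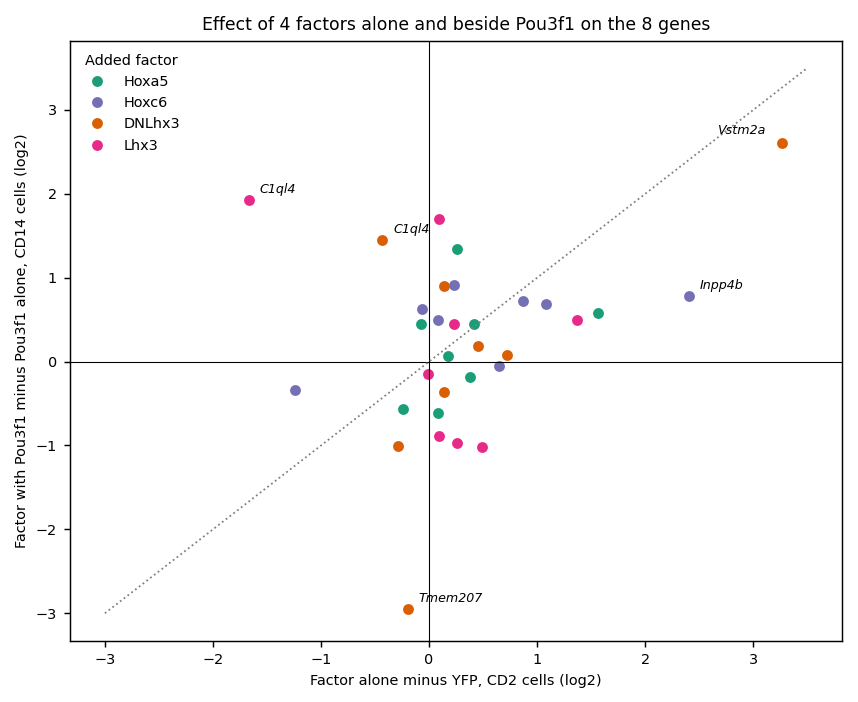
Difference that each of 4 factors made beside Pou3f1 in CD14 cells (y axis, log2) against the difference it made alone in CD2 cells (x axis, log2); each point is 1 of the 8 genes, and the dotted line marks equal effects. Vstm2a with DNLhx3 lies near the line (3.27 and 2.60), while Tmem207 with DNLhx3 and C1ql4 with Lhx3 lie far from it. The place of C1ql4 with Lhx3 on the x axis rests on the batch terms.

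Measured genes beside Tmem207 on the chromosome moved with it in part. In the line with Lhx3, Il1rap, the gene next to Tmem207 and the interleukin-1 receptor accessory protein, rose by 1.36 ± 0.26 against YFP (limma adjusted p = 0.000476), and the claudin gene Cldn1, second on the other side, rose by 1.97 ± 0.23 (9.87e-08). Cldn16, which lies between Cldn1 and Tmem207, differed by -0.01 ± 0.19. With DNLhx3 against Pou3f1 alone, Il1rap fell by 1.99 ± 0.26 (1.14e-06) and Gmnc fell by 0.84 ± 0.20 (0.0100), while Cldn1 differed by -0.59 ± 0.23 (0.250). Il1rap also fell with DNLhx3 in CD2 cells, by 1.25 ± 0.24 (0.00079), where Tmem207 differed by -0.20. Over the 2 nearest measured genes on each side of all 8 genes, 4 of 32 rose and 1 fell with Pou3f1+Lhx3 against YFP, where 2.21% of all genes rose and 1.73% fell. With DNLhx3 against Pou3f1 alone 0 rose and 3 fell, where 0.948% of all genes rose and 1.16% fell. The third that fell was Prph, beside C1ql4 (by 0.61, adjusted p = 0.0321), and Dnajc22, also beside C1ql4, rose with Pou3f1+Lhx3 (by 0.98, adjusted p = 0.000683). Neighbours also moved without Lhx3 or DNLhx3. With Hoxc6 against Pou3f1 alone, 7 of the 32 rose and 0 fell, where 4.67% of all genes rose and 4.30% fell. With Lhx3 against Pou3f1 alone, 0 rose and 0 fell, where 0.351% of all genes rose and 0.150% fell.

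**Figure D5:**
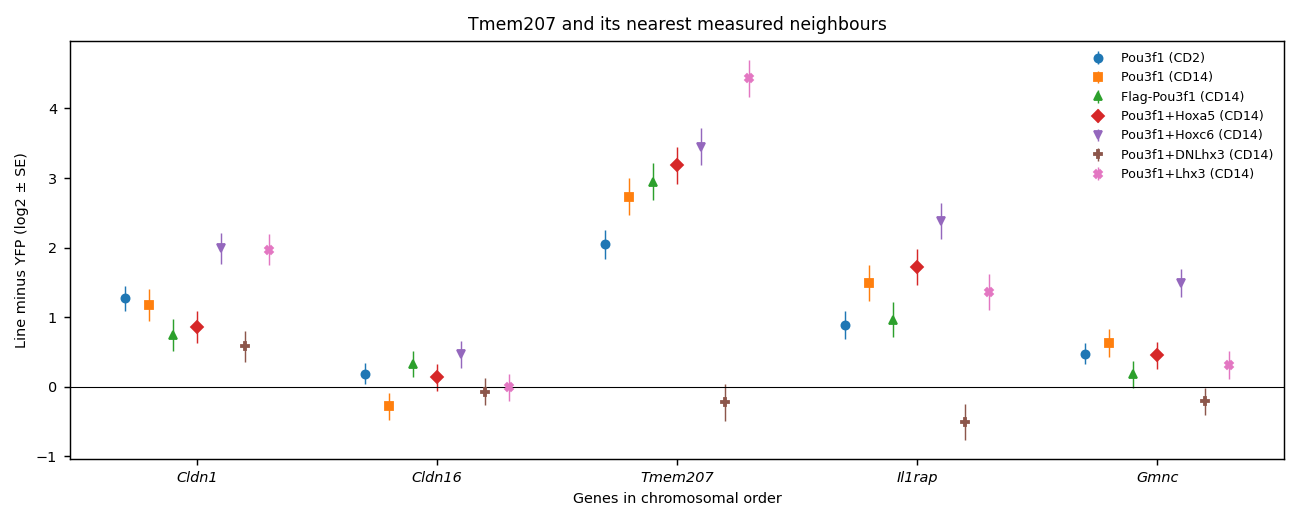
Fitted difference from YFP of the same reporter (y axis, log2 with standard error) of Tmem207 and the 2 nearest measured genes on each side (x axis, in chromosomal order) in the 7 lines with Pou3f1. Il1rap is above 0 in 6 lines and at -0.50 beside DNLhx3, as Tmem207 is at -0.22, whereas Cldn16 stays between -0.28 and 0.47.

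Relatives of some of the 8 genes moved. With Pou3f1+Lhx3 against YFP, 2.21% of all genes rose and 1.73% fell. Of 11 measured C1q-like, cerebellin and receptor genes, 5 rose and 0 fell with Pou3f1+Lhx3 against YFP, with a median of 0.73: the synaptic organiser Cbln1 (1.32 ± 0.30, limma adjusted p = 0.00392), C1ql2 (0.97 ± 0.15, 2.21e-05), the receptors Adgrb3 (0.85 ± 0.16, 0.000321) and Adgrb2 (0.78 ± 0.16, 0.00194), and Cbln4 (0.73 ± 0.20, 0.0236). With DNLhx3 against Pou3f1 alone, Cbln4 (2.52 ± 0.20, 1.01e-11) and C1ql1 (1.18 ± 0.18, 2.44e-05) rose and Cbln2 fell (-1.17 ± 0.30, 0.0239). DNLhx3 alone gave the same directions in CD2 cells, with Cbln4 at 2.98 ± 0.18, C1ql1 at 1.71 ± 0.17 and Cbln2 at -1.76 ± 0.28. Of the 4 measured relatives of Vstm2a, Vstm2b rose with DNLhx3 both beside Pou3f1 (0.94 ± 0.15, adjusted p = 6.73e-05) and alone (0.83 ± 0.14, 0.000139). With Pou3f1+Lhx3 against YFP, 0 of 17 phosphoinositide phosphatases, 0 of 4 MAST kinases, 0 of 5 calmodulin and IQ-motif genes, 0 of 7 maestro relatives and 0 of 7 NR0B, NR5A and steroidogenic genes passed by limma, where 3.94% of all genes did, either way. Of 7 POU factors 3 rose, Pou2f2 by 1.38 ± 0.25, Pou3f1 itself and Pou6f1 by 0.44 ± 0.11, and Pou3f2 fell by 0.51 ± 0.15.

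The patterns of the 8 genes over the 30 fitted group levels correlated with each other at a median of 0.768 (0.261 to 0.904 over 28 pairs); the genes were chosen on part of these groups. Over the 23 groups without Pou3f1 the median was 0.295, and over the 7 groups with Pou3f1 it was 0.0116, between -0.778 for Tmem207 with Vstm2a and 0.896 for Inpp4b with Pcp4l1. The points share arrays, batches and controls, so these are descriptions. The genes most like each other outside the 8 were Epha5 for Inpp4b (0.947), Synpr for Mro (0.914), Slitrk1 for Mast4 (0.888), Grik1 for Vstm2a (0.881), Cfap206 for Nr0b1 (0.874) and Pcp4l1 (0.848), Gpr151 for Tmem207 (0.872) and Dnajc22 for C1ql4 (0.862). Cdh9, the cadherin gene with the widest difference in the Pou3f1 lines, correlated with Inpp4b at 0.914 and with C1ql4 at 0.0958. Cdh9 read 11.33 and 11.12 in the Pou3f1 arrays of batches 1 and 2 but 7.09 and 7.17 in the 2 Hox-high arrays of batch 4, against 5.73 to 5.95 with YFP in CD2 cells. Its fitted difference there was 3.76 ± 0.49 with all arrays and 5.44 without the 6 Hox-high arrays, and in CD14 cells with Pou3f1 alone it was 3.73 ± 0.62.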

How the data were processed

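RNA of 68 samples was measured with 1 Affymetrix mouse gene array each. The authors deposited log2 values for 35556 transcript clusters, made with RMA (background correction, quantile normalization and probe summary) by oligo, as the submitters' processing notes name it. The sources used here give no version of it. Scanner intensities were not used, so whether single probes were above background was not examined, and precision is limited by the number of arrays. Clusters with exactly 1 symbol (21789) were kept, and for genes with several the one with the highest mean, which left 19938 genes; each of the 8 genes has 1 cluster. Array medians were 7.57 to 7.84 outside batch 0, whose 2 arrays entered no comparison.

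One limma model (version 3.58.1 in R 4.3.3) held 31 groups and the batch (37 columns, 31 residual degrees of freedom) and was fitted by lmFit, then eBayes. Adjusted p-values are two-sided, by Benjamini-Hochberg over all 19938 genes in each of 38 comparisons and 4 differences of effects added later. The 8 genes and the gene lists were chosen with earlier results of these data known. The text names all 8 genes, called list members (at most 4 per list), called neighbours and the genes most alike in pattern. No test of the 8 genes between a Pou3f1 line and YFP is given. The fit did test them for Pou3f1+Lhx3 against YFP, and those calls were left out because the YFP arrays helped to choose the genes. The model was tested on simulated data. Same-numbered arrays of the CD14 groups did not deviate together (correlations -0.144 to 0.163, 2 of 10 over 0.1), so numbers were not taken to pair arrays. Replicates correlated at 0.974 to 0.998 over 47 pairs, with at most 8 identical genes per pair, and all arrays were counted as separate.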

Additional observations from a re-analysis of the deposited data

Results flagged for a closer look

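In 1 of 24 sets of a gene and a group with 4 arrays, a single array stood apart from the other 3, where chance gives about 1 in 20: Vstm2a read 8.87 in the YFP array of batch 1 in CD2 cells, against 7.99 to 8.06 in the others. Within that batch the Pou3f1 array exceeded it by 1.01, and within batch 2 by 1.74.

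The effect of a factor beside Pou3f1 (CD14 cells) differed from its effect alone (CD2 cells) in 4 of 32 pairs of gene and factor, by limma's test of the difference, which was added after the values had been seen. For Tmem207 with DNLhx3 the difference was -2.76. It kept its call with the H4 line as control and without the 6 Hox-high arrays, the only other settings run for these differences. Over these settings and left-out arrays it was -2.92 to -2.58. For C1ql4 with Lhx3 it was 3.59, and its call held in the same settings, with 2.40 to 3.75 over them and left-out arrays. The fall with Lhx3 alone rests on the batch terms, and a fit without them was not run for this difference. For C1ql4 with DNLhx3 it was 1.88 and for Inpp4b with Hoxc6 it was -1.63, and both calls were lost with the H4 line as control and with some arrays left out. Reporter, batch and the presence of Pou3f1 change together in these differences and cannot be told apart. The Pou3f1-alone and YFP arrays in them also helped to choose the genes.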

How the results depend on the processing

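Under other settings of the analysis no call on the 8 genes changed direction. For the lines without Pou3f1, the 5 calls of 168 pairs became 11 with the H4 line as control (136 pairs), 8 without the 6 Hox-high arrays and 2 within a shared batch (72 pairs, 1 of them called in the full model); leaving out 1 array gave 3 to 7, with 3 without the Lhx3 array of batch 5. For a factor or tag added to Pou3f1, the 8 calls of 40 became 24 with CD14 arrays alone, 18 within a shared batch (32 pairs), 13 without the 6 Hox-high arrays and 5 with the replicate number as a block; leaving out 1 array gave 5 to 8, with 5 without replicate 2 of Pou3f1 in CD14 cells. For factors compared beside Pou3f1, the 15 calls of 32 became 11 with the replicate block, and leaving out 1 array gave 10 to 15. Causes of these shifts were not tested. A filter to genes above the median level kept 3 of the 8 genes, so most of them could not be tested under it. With 2 arrays in most groups, a lone array left after another is left out is assumed to vary like the other groups. Differences of several standard errors did not always pass, so a gene without a call cannot be taken as unchanged.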
